A study of Caenorhabditis elegans with 18 samples.

Results

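The 8 genes of the lipl family, lipl-1 to lipl-8, encode lipases related to lysosomal acid lipase, and their RNA was followed in first-stage (L1) larvae of the nematode Caenorhabditis elegans. They were picked by name alone, by matching the gene identifiers of the deposited table to WormBase names, and make up 8 of the 46904 genes listed. RNA of whole larvae was sequenced in 18 libraries, 3 in each of 6 groups: raga-1(ok386) mutants fed and starved, rsks-1(ok1255) mutants fed and starved, and wild-type N2 larvae fed and starved. The labels give N2 as the line of every sample and 1 allele for each mutant genotype. Worms were raised at 20 °C on OP50 bacteria, eggs freed by bleaching stayed 24 h in M9 buffer without food so that the hatchlings arrested, and fed larvae then spent 4 h on plates with OP50. The labels do not say whether starved larvae were held for those extra hours, so food and added time cannot be told apart. Nor do they say whether the 3 libraries of a group came from separate cultures, so p-values measure the spread between libraries, which may be technical.

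Lysosomal acid lipases cut triglycerides and cholesteryl esters that reach the lysosome, and in worms they take part in the breakdown of stored fat during fasting. In fasted adult worms the transcription factor HLH-30, the worm counterpart of TFEB, raises several lipl genes, and in fed worms the repressor MXL-3 holds them down. The gene raga-1 encodes the small GTPase RagA, which brings the growth kinase complex TORC1 to the lysosome when amino acids are present, and rsks-1 encodes the S6 kinase, which TORC1 phosphorylates.

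The genotype labels were checked first against the RNA of the targeted genes, in CPM, the counts relative to the scaled library total. No count of raga-1 was seen in any raga-1 library, against means of 47.4 and 46.9 CPM in fed and starved rsks-1 larvae and 64.1 and 50.1 CPM in fed and starved N2 larvae. The rsks-1 RNA was lowered but present in rsks-1 larvae, at 24.8 ± 2.65 CPM fed and 37.5 ± 3.69 CPM starved, against 170.7 ± 9.24 and 186.1 ± 9.38 CPM in fed and starved N2 larvae (SD, n = 3). Library totals ran from 9929323 to 18539402 counts. Markers of intestine, neurons, body wall muscle, epidermis and pharynx were all detected in every group. Of the 46904 genes, 14073 held enough counts to be tested, among them 7 of the 8 lipl genes. The lowest, lipl-8, was not tested, and lipl-4 passed only through starved rsks-1 and starved N2 larvae, where it is high, so that it had to differ. The counts of lipl genes given here, and the calls of lipl-4 within them, therefore describe the tested genes and are not evidence.

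Of the 7 tested lipl RNAs, 6 were lower in fed than in starved larvae of rsks-1 and N2, and most of these differences were smaller or of opposite sign in raga-1. On feeding, 3 of the 7 tested genes fell in raga-1 larvae and 2 rose, 6 fell and 1 rose in rsks-1 larvae, and 6 fell and 0 rose in N2 larvae, at an adjusted p below 0.05 (edgeR quasi-likelihood test, Benjamini-Hochberg). Feeding changed most of the transcriptome, so these counts need the background: of all genes tested 32.9% fell and 29.4% rose in raga-1, 35.2% fell and 35.7% rose in rsks-1, and 37.4% fell and 36.5% rose in N2. The median log2 change of the tested lipl genes was -0.53 in raga-1, -1.31 in rsks-1 and -1.72 in N2, against -0.05, -0.02 and -0.07 for all genes in the same genotypes. The lipl medians include lipl-4, which had to differ in rsks-1 and N2, so they are a description and not evidence. When libraries were scaled to their totals only, in place of the trimmed mean of M-values (TMM), the all-gene median shifted by -0.10, -0.20 and -0.30 in these genotypes, and the share of called genes that were higher became 37.7% in place of 47.2% in raga-1, 38.9% in place of 50.4% in rsks-1 and 35.6% in place of 49.4% in N2. No tested lipl gene changed direction in any of the 10 comparisons under that scaling or under relative log expression factors. Because whole larvae were used, fewer cells that express a gene and less RNA per cell cannot be told apart.

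**Figure D1:**
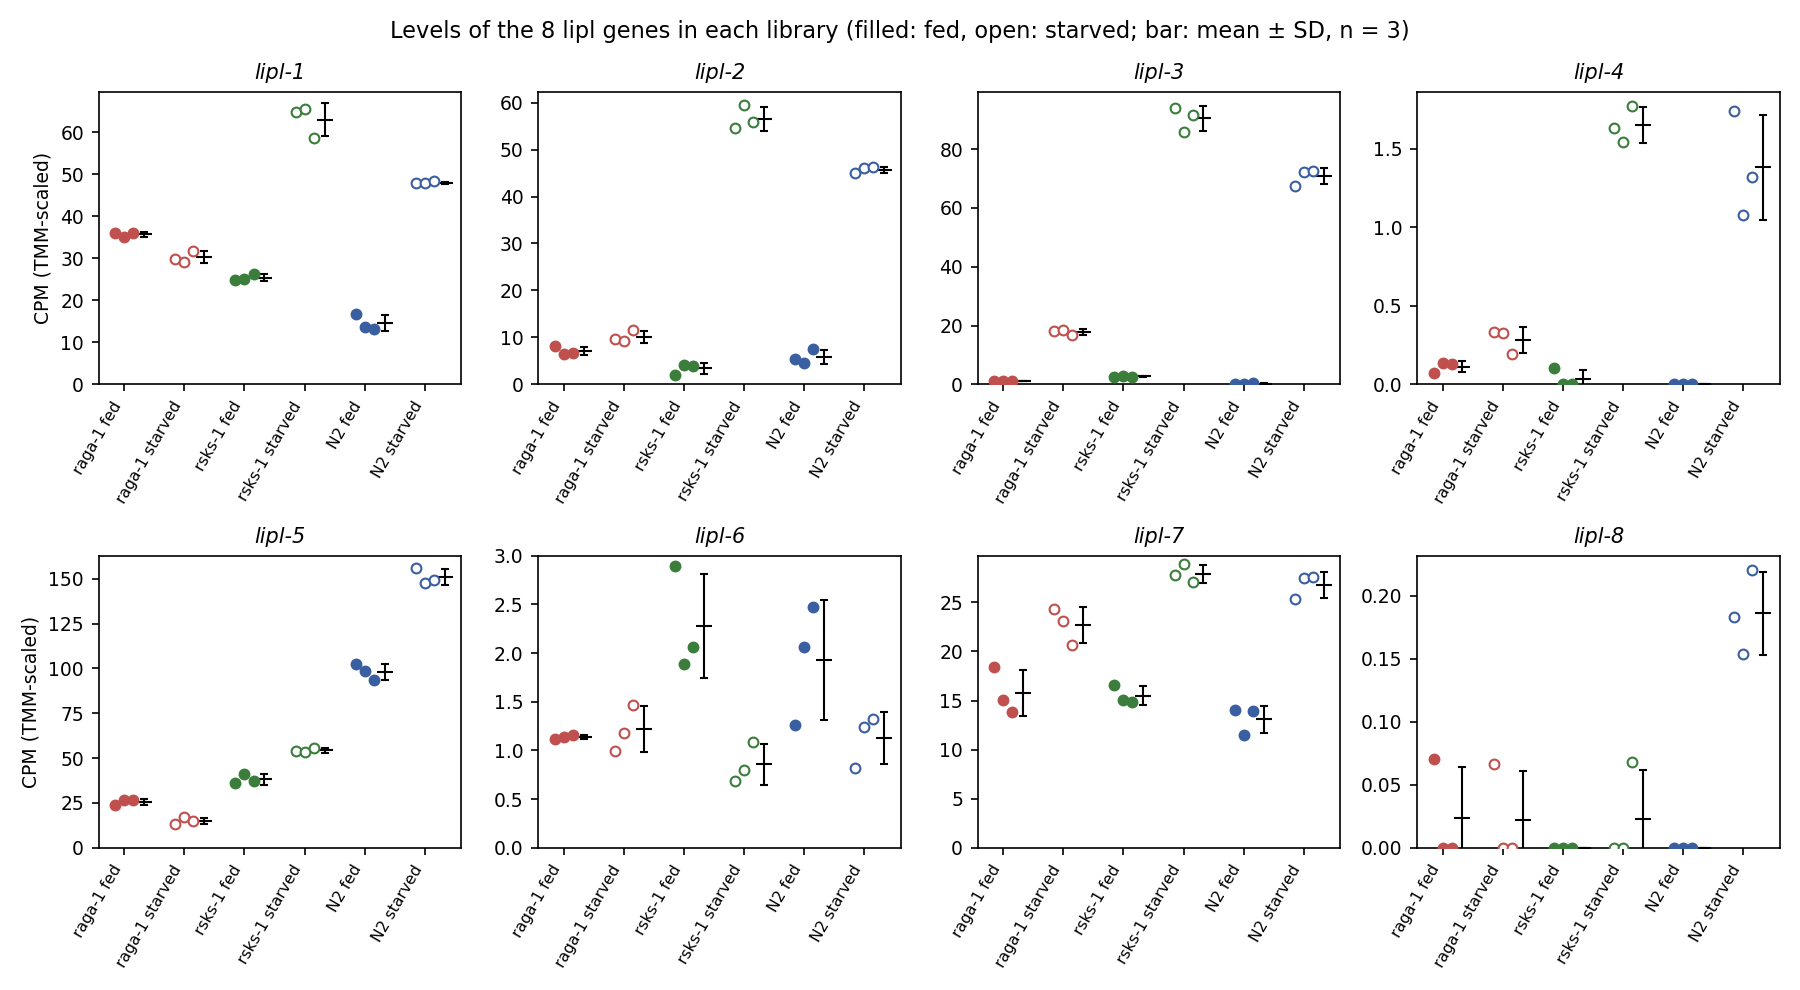
TMM-scaled CPM of each lipl gene in each library, with fed libraries as filled and starved libraries as open points and the mean ± SD of 3 libraries beside them. The panels for lipl-2 and lipl-3 show high points only in starved rsks-1 and starved N2 larvae, with starved raga-1 larvae at 10.1 and 17.9 CPM on average, while lipl-5 is highest in N2 in both states.

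A deep fall on feeding in every genotype was seen for lipl-3 (WBGene00020016), one of the lipases that fasting induces in adult worms. It lies on chromosome V from 521595 to 524218 on the minus strand, in 7 exons, by the WBcel235 annotation. Its level was 0.981, 1.21 and 1.16 CPM in fed raga-1 larvae and 18.3, 18.6 and 16.8 CPM in starved raga-1 larvae. In rsks-1 it was 2.58, 2.84 and 2.59 CPM fed and 94.1, 85.9 and 91.5 CPM starved. In N2 it was 0.105, 0.229 and 0.353 CPM fed and 67.6, 72.1 and 72.4 CPM starved. Fed and starved libraries were thus far apart in every genotype, and no neighbours overlapped in the order of the 6 groups, which ran from starved rsks-1 through starved N2, starved raga-1, fed rsks-1 and fed raga-1 down to fed N2. Feeding lowered lipl-3 by a log2 change of -3.98 in raga-1 (SE 0.15, edgeR adjusted p = 1.41e-51), of -5.07 in rsks-1 (SE 0.11, edgeR adjusted p = 4.23e-80) and of -8.24 in N2 (SE 0.18, edgeR adjusted p = 1.6e-76). The N2 value rests on few reads: fed N2 larvae gave 6 counts in all 3 libraries together, against 2659 in starved N2 larvae, a ratio of 316.4 with a 95% counting interval from 145.2 to 863.0. Intervals of this kind cover counting error only. The SE of 0.18 for the N2 value, derived from the test statistic, is narrower than this interval and understates the error. The gene shares 23 exonic bases with srw-107 on the same strand, and srw-107 had 0 counts in every group.

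A second strongly lowered gene was lipl-2 (WBGene00009773), another member that fasting raises in adults. It lies on chromosome V from 9791567 to 9793241 on the plus strand, in 5 exons. In raga-1 it stood at 8.06, 6.46 and 6.62 CPM fed and at 9.71, 9.18 and 11.5 CPM starved. Its level in rsks-1 was 2.06, 4.19 and 3.89 CPM fed and 54.5, 59.4 and 55.8 CPM starved. For N2 the values were 5.35, 4.57 and 7.42 CPM fed and 45.0, 46.0 and 46.3 CPM starved. Starved raga-1 larvae were thus closer to the fed groups than to the other starved groups, and in the order of the groups only fed raga-1 and fed N2, and no other neighbours, overlapped. The log2 change on feeding was -0.54 in raga-1 (SE 0.12, edgeR adjusted p = 7.54e-05), -4.0 in rsks-1 (SE 0.12, edgeR adjusted p = 4.61e-60) and -2.99 in N2 (SE 0.12, edgeR adjusted p = 1e-46). As folds these are 1.45, 16.1 and 7.94 times lower in fed larvae of the 3 genotypes in that order.

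The gene lipl-1 (WBGene00010062), which is needed together with lipl-3 for fat breakdown through the lysosome in fasted worms, changed less and in both directions. It lies on chromosome V from 12919986 to 12921692 on the plus strand, in 5 exons. Fed raga-1 larvae had 36.0, 35.0 and 36.1 CPM and starved raga-1 larvae 29.8, 29.2 and 31.8 CPM. Fed rsks-1 larvae had 24.8, 25.1 and 26.2 CPM and starved ones 64.7, 65.6 and 58.6 CPM. Fed N2 larvae had 16.7, 13.7 and 13.1 CPM and starved ones 48.0, 47.8 and 48.3 CPM. No neighbours overlapped in the order of the groups, in which fed and starved raga-1 larvae lay between starved N2 and fed rsks-1 larvae. Feeding raised lipl-1 slightly in raga-1, by a log2 change of 0.23 (SE 0.07, edgeR adjusted p = 0.00199), and lowered it by -1.31 in rsks-1 (SE 0.07, edgeR adjusted p = 5.74e-37) and by -1.72 in N2 (SE 0.09, edgeR adjusted p = 9.31e-40). The small rise in raga-1 depended on the scaling: with library totals alone it was 0.13 (edgeR adjusted p = 0.0858).

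The gene lipl-4 (WBGene00019376) is known for lysosomal lipid signalling to the nucleus through the carrier LBP-8 and for lifespan extension when overexpressed in the intestine. Of the tested genes lipl-4 was the least abundant except in starved rsks-1 and starved N2 larvae, where lipl-6 was lower. It lies on chromosome V from 6550171 to 6552186 on the plus strand and overlaps 2 opposite-strand noncoding genes, K04A8.15 and a tRNA gene, that had 0 counts in every group. Its level was 0.0701, 0.135 and 0.129 CPM in fed raga-1 larvae and 0.332, 0.328 and 0.19 CPM in starved raga-1 larvae. In rsks-1 it was 0.103, 0 and 0 CPM fed and 1.63, 1.54 and 1.77 CPM starved. In N2 it was 0 CPM in each fed library and 1.74, 1.08 and 1.32 CPM in the starved ones. Starved rsks-1 and starved N2 larvae overlapped at the top, and starved raga-1 larvae lay between them and the fed groups, of which fed rsks-1 overlapped both fed raga-1 and fed N2. In counts, feeding gave 5 against 14 in raga-1, a ratio of 2.43 with a 95% counting interval from 0.828 to 8.63, and the fitted log2 change was -1.23 (SE 0.80). In rsks-1 1 count stood against 70, a ratio of 61.8 with an interval from 10.7 to 2476.7. In N2 0 counts stood against 51, a starved level 12.1-fold above a floor of 3 counts over the fed group. That value leaves out the counting error of the 51. No p is given for these lipl-4 values, since the gene entered the test through the libraries where it is high.

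The most abundant lipl gene in N2 was lipl-5 (WBGene00022642), an intestinal lysosomal lipase whose RNA is known to respond to food. It lies on chromosome V from 385746 to 387740 on the plus strand, in 6 exons. Its level was 23.8, 26.7 and 26.4 CPM in fed raga-1 larvae and 13.3, 17 and 14.7 CPM in starved raga-1 larvae. The rsks-1 values were 36.0, 41.3 and 37.0 CPM fed and 53.8, 53.5 and 55.7 CPM starved. The N2 values were 102.4, 98.7 and 93.5 CPM fed and 155.8, 147.4 and 149.1 CPM starved. Here genotype separated the libraries more than food did: both N2 groups lay above both rsks-1 groups, these lay above both raga-1 groups, and no neighbours overlapped. Feeding raised lipl-5 in raga-1 by a log2 change of 0.78 (SE 0.08, edgeR adjusted p = 2.45e-17) and lowered it in rsks-1 by -0.50 (SE 0.06, edgeR adjusted p = 1.39e-12) and in N2 by -0.62 (SE 0.05, edgeR adjusted p = 6.42e-21). The deposited isoform table lists 6 isoforms of lipl-5, and ZK6.7a.1 and ZK6.7c.1 carry the same values, 46.5 to 49.1% of the gene's counts each in every group, so these isoforms were not told apart.

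Weaker changes were seen for lipl-7 (WBGene00008510), the only family member on chromosome IV, from 10239278 to 10241823 on the minus strand, in 6 exons. Its level was 18.4, 15.1 and 13.8 CPM in fed raga-1 larvae and 24.3, 23.1 and 20.7 CPM in starved raga-1 larvae. The rsks-1 libraries had 16.6, 15.1 and 14.8 CPM fed and 27.8, 28.9 and 27.1 CPM starved. The N2 libraries had 14, 11.5 and 13.9 CPM fed and 25.3, 27.5 and 27.6 CPM starved. All starved libraries lay above all fed ones. Among the groups, starved rsks-1 overlapped starved N2, and fed raga-1 overlapped fed rsks-1 and fed N2. Feeding lowered lipl-7 in each genotype, with log2 changes of -0.53 in raga-1 (SE 0.09, edgeR adjusted p = 5.01e-07), -0.86 in rsks-1 (SE 0.10, edgeR adjusted p = 2.65e-14) and -1.03 in N2 (SE 0.11, edgeR adjusted p = 5.1e-16). The next gene on the same strand, ech-8, begins its annotated span 101 bases beyond lipl-7, shares 0 exonic bases with it and changed by -1.51, -1.72 and -2.13 on feeding in raga-1, rsks-1 and N2.

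The other low gene, lipl-6 (WBGene00021963), was the one tested member that rose on feeding in rsks-1. It lies on chromosome V from 6931475 to 6934312 on the minus strand, in 10 exons. It had 1.12, 1.14 and 1.16 CPM in fed raga-1 larvae and 0.997, 1.18 and 1.47 CPM in starved raga-1 larvae. It had 2.89, 1.89 and 2.06 CPM in fed rsks-1 larvae and 0.685, 0.801 and 1.09 CPM in starved rsks-1 larvae. It had 1.26, 2.06 and 2.47 CPM in fed N2 larvae and 0.824, 1.24 and 1.32 CPM in starved N2 larvae. Only in rsks-1 were fed and starved libraries apart, and every pair of neighbours in the order of the 6 groups overlapped. Feeding raised lipl-6 in rsks-1 by a log2 change of 1.36 (SE 0.36, edgeR adjusted p = 0.000505), while values of -0.11 in raga-1 (SE 0.36, edgeR adjusted p = 0.803) and 0.74 in N2 (SE 0.38, edgeR adjusted p = 0.0719) did not pass. The N2 value depended on 1 library: without fed N2 replicate 1 it was 0.99 (edgeR adjusted p = 0.0267). Without starved raga-1 replicate 3 the raga-1 value was 0.07.

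The untested lipl-8 (WBGene00013050), on chromosome V from 14745684 to 14748708 on the minus strand, had few counts. It had 1 count in fed and 1 in starved raga-1 larvae, 0 in fed and 1 in starved rsks-1 larvae, and 0 in fed and 7 in starved N2 larvae. All 3 starved N2 libraries held counts, at 0.183, 0.154 and 0.22 CPM. The level in starved N2 larvae was 1.67-fold above the floor of 3 counts in fed N2 larvae, with the counting error of the 7 left out. Starved raga-1 larvae were lower than starved N2 larvae by a ratio of 9.60 with a 95% counting interval from 1.23 to 432.4, and starved rsks-1 larvae by 7.95, from 1.02 to 358.4.

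The differences between the genotypes' responses to feeding were tested as interactions. Between raga-1 and N2 they were large: the log2 response of raga-1 lay above that of N2 in 6 of the 7 tested genes and below it in 0, where 21.8% of all genes had a higher and 28.8% a lower response in raga-1. The differences of the log2 changes were 1.96 for lipl-1 (SE 0.11, edgeR adjusted p = 5.83e-34), 2.45 for lipl-2 (SE 0.18, edgeR adjusted p = 5.45e-24) and 4.26 for lipl-3 (SE 0.45, edgeR adjusted p = 1.64e-15). A difference also passed for lipl-5, at 1.39 (SE 0.09, edgeR adjusted p = 2.2e-28), and for lipl-7, at 0.51 (SE 0.14, edgeR adjusted p = 0.00184). The remaining gene in that count is lipl-4, whose difference rests on the 0 counts in fed N2 larvae, has no bound on its size and is not evidence of a difference. The gene lipl-6, at -0.85 (SE 0.52, edgeR adjusted p = 0.171), did not pass. With library totals alone the all-gene median shifted by 0.20 here, and the share of called genes that were higher became 61.7% in place of 43.1%.

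Between rsks-1 and N2 the responses differed in fewer lipl genes, 2 with a higher and 1 with a lower response in rsks-1, where 10.8% of all genes had a higher and 15.8% a lower one. The fall of lipl-3 was shallower in rsks-1 by 3.17 (SE 0.42, edgeR adjusted p = 1.96e-10) and that of lipl-1 by 0.42 (SE 0.11, edgeR adjusted p = 0.00275). The fall of lipl-2 was deeper in rsks-1, by -1.02 (SE 0.20, edgeR adjusted p = 2.48e-05). Values for lipl-5 of 0.11 (SE 0.08, edgeR adjusted p = 0.344) and for lipl-7 of 0.17 (SE 0.15, edgeR adjusted p = 0.431) did not pass, nor did lipl-6 at 0.62 (SE 0.53, edgeR adjusted p = 0.437) or lipl-4. With library totals alone the lipl-5 difference was 0.22 (edgeR adjusted p = 0.0405), the median of all genes moved by 0.10, and the share of called genes that were higher became 62.0% in place of 40.5%.

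Set directly against each other, the mutants' responses differed in all 7 tested genes, with 6 higher and 1 lower in raga-1, where 18.8% of all genes were higher and 25.3% lower. The log2 difference was 3.47 for lipl-2 (SE 0.19, edgeR adjusted p = 4.66e-35), 1.54 for lipl-1 (SE 0.10, edgeR adjusted p = 1.41e-29), 1.28 for lipl-5 (SE 0.10, edgeR adjusted p = 1.21e-23) and 1.09 for lipl-3 (SE 0.27, edgeR adjusted p = 0.000316). It was lower in raga-1 for lipl-6, at -1.47 (SE 0.51, edgeR adjusted p = 0.0129), a call lost without starved raga-1 replicate 3 (-1.29, edgeR adjusted p = 0.051). The value of 0.33 for lipl-7 (SE 0.14, edgeR adjusted p = 0.0373) was lost when any of 5 single libraries was left out, fed raga-1 replicate 1, starved raga-1 replicate 3, fed rsks-1 replicates 2 and 3 and starved rsks-1 replicate 2, with values from 0.21 to 0.32. The lipl-4 value in that count rests on 5 fed and 14 starved counts in raga-1 larvae, against 1 fed and 70 starved counts in rsks-1 larvae, and is a description only. The share of called genes that were higher became 54.2% in place of 42.7% with library totals alone. All 3 of these comparisons share groups, so they are not independent of one another.

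**Figure D2:**
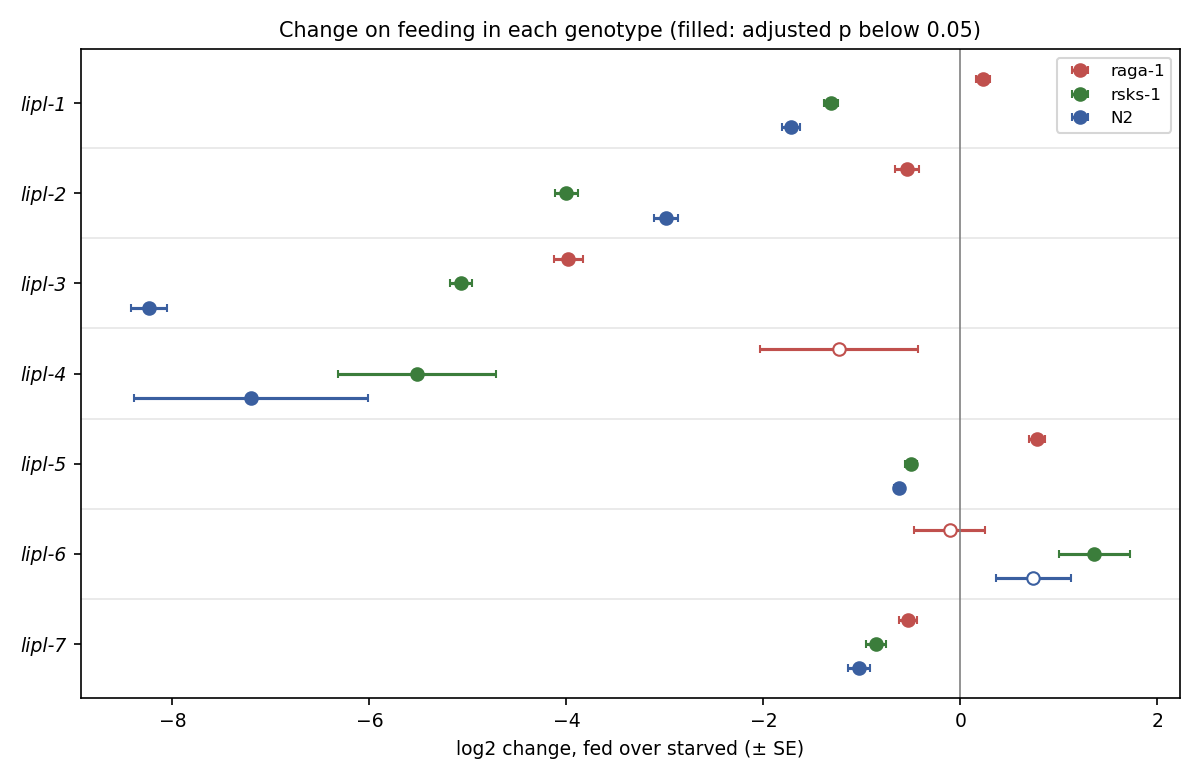
Log2 change on feeding of the 7 tested lipl genes with its standard error, fed over starved, for raga-1, rsks-1 and N2, with filled points where the adjusted p was below 0.05. The standard errors are derived from the test statistic, and that of lipl-3 in N2 understates the error. The raga-1 points sit nearest to 0 for lipl-2, lipl-3, lipl-4 and lipl-7 and on the other side of 0 for lipl-1 and lipl-5, and the N2 point of lipl-4 is a fitted value with 0 counts in fed larvae.

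Comparing the mutants with N2 within each state shows where these differences lie. In starved larvae 6 of the 7 tested genes were lower in raga-1 than in N2 and 0 were higher, where 25.7% of all genes were lower and 27.0% higher. The largest was lipl-5, at 15 ± 1.86 CPM in raga-1 against 150.8 ± 4.40 CPM in N2 (SD, n = 3), 10.1-fold lower (log2 change -3.33, SE 0.06, edgeR adjusted p = 4.02e-84). Next came lipl-2 (log2 change -2.16, SE 0.10, edgeR adjusted p = 1.64e-42) and lipl-3 (-1.99, SE 0.07, edgeR adjusted p = 4.6e-52), 4.47 and 3.97-fold lower in raga-1. For lipl-4, given as a description, the level was 0.283 ± 0.0812 CPM in raga-1 against 1.38 ± 0.333 CPM in N2 (SD, n = 3). The gene lipl-1 was 1.58-fold lower (log2 change -0.66, SE 0.07, edgeR adjusted p = 4.69e-16). The value of lipl-7, -0.25 (SE 0.09, edgeR adjusted p = 0.0147), was not called with library totals alone (-0.13, edgeR adjusted p = 0.237) or without starved raga-1 replicate 3 (-0.18) or starved N2 replicate 2 or 3 (-0.23 each). For lipl-6 the value was 0.11 (SE 0.37, edgeR adjusted p = 0.823). With library totals alone the median of all genes moved by 0.12, and 67.5% of called genes were higher in place of 51.2%.

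In fed larvae the raga-1 mutant had a mixed pattern against N2, with 3 of the 7 tested genes higher and 1 lower, where 28.9% of all genes were higher and 34.4% lower. The higher ones were lipl-1, at 35.7 ± 0.613 CPM in raga-1 against 14.5 ± 1.93 CPM in N2 (log2 change 1.29, SE 0.09, edgeR adjusted p = 7.47e-28), and lipl-3 (2.27, SE 0.48, edgeR adjusted p = 1.78e-05). The lipl-3 value rests on 50 counts in raga-1 against 6 in N2, a ratio of 4.99 with a 95% counting interval from 2.14 to 14.3. Still lower in raga-1 was lipl-5, at 25.6 ± 1.63 CPM against 98.2 ± 4.46 CPM in N2 (log2 change -1.94, SE 0.06, edgeR adjusted p = 1.13e-57). The third higher gene, lipl-7 (0.26, SE 0.11, edgeR adjusted p = 0.0402), overlapped between the genotypes and was not called by DESeq2 (adjusted p = 0.0512) or without fed raga-1 replicate 1 (0.13) or fed N2 replicate 2 (0.17). Not called were lipl-2 at 0.29 (SE 0.16, edgeR adjusted p = 0.105), lipl-6 at -0.74 (SE 0.37, edgeR adjusted p = 0.0731) and lipl-4, with 5 counts in raga-1 against 0 in N2. The lipl-2 value passed with library totals alone (0.61, edgeR adjusted p = 0.000371) and without fed N2 replicate 3 (0.49, edgeR adjusted p = 0.0149), and the lipl-6 value without fed N2 replicate 1 (-0.98, edgeR adjusted p = 0.0286). That scaling moved the median of all genes by 0.32, and 71.2% of called genes were higher in place of 45.7%.

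The rsks-1 mutant was set against N2 in the same way. In starved larvae 3 of the 7 tested genes were higher in rsks-1 and 1 was lower, where 15.1% of all genes were higher and 11.9% lower. The lower gene was lipl-5, at 54.3 ± 1.20 CPM in rsks-1 against 150.8 ± 4.40 CPM in N2 (log2 change -1.47, SE 0.05, edgeR adjusted p = 1.81e-51). The higher genes were lipl-1 (0.39, SE 0.06, edgeR adjusted p = 1.73e-07), lipl-3 (0.35, SE 0.06, edgeR adjusted p = 1.62e-06) and lipl-2 (0.31, SE 0.08, edgeR adjusted p = 0.00157), each between 1.24 and 1.31-fold higher. Values of -0.39 for lipl-6 and 0.06 for lipl-7 did not pass (edgeR adjusted p = 0.529 and 0.698), nor did lipl-4 at 0.26. With library totals alone 45.4% of called genes were higher in place of 55.9%.

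In fed larvae 2 of the 7 tested genes were higher and 2 lower in rsks-1 than in N2, where 17.4% of all genes were higher and 22.6% lower. The gene lipl-3 had 101 counts in rsks-1 against 6 in N2, a ratio of 12 with a 95% counting interval from 5.32 to 33.4 (log2 change 3.53, SE 0.40, edgeR adjusted p = 1.78e-13). Also higher was lipl-1, at 25.4 ± 0.747 CPM in rsks-1 against 14.5 ± 1.93 CPM in N2 (log2 change 0.80, SE 0.09, edgeR adjusted p = 6.55e-13). The gene lipl-5 was lower, at 38.1 ± 2.84 CPM in rsks-1 against 98.2 ± 4.46 CPM in N2 (log2 change -1.36, SE 0.06, edgeR adjusted p = 7.8e-43). The lower value of lipl-2 (-0.71, SE 0.19, edgeR adjusted p = 0.00108) was lost without fed N2 replicate 3 (-0.50, edgeR adjusted p = 0.0544). Values of 0.22 for lipl-6 (SE 0.35, edgeR adjusted p = 0.651) and 0.23 for lipl-7 (SE 0.12, edgeR adjusted p = 0.106) did not pass, though lipl-7 did with library totals alone (0.30, edgeR adjusted p = 0.032), and lipl-6 was -0.02 without fed N2 replicate 1. For lipl-4, 1 count in rsks-1 stood against 0 in N2, and no fold is given. With library totals alone 56.9% of called genes were higher in place of 43.6%. Both mutants were set against the same N2 libraries, so their differences from N2 share these controls.

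**Figure D3:**
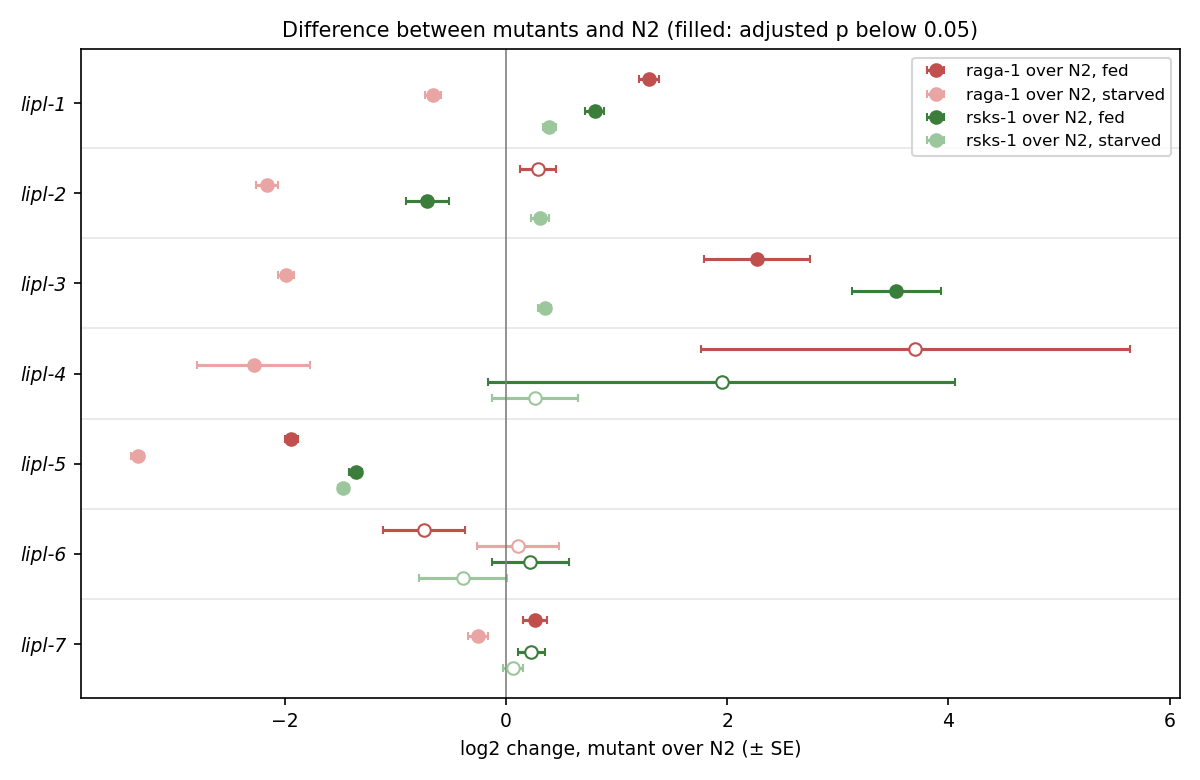
Log2 difference of each mutant from N2 within fed and within starved larvae for the 7 tested lipl genes, with its standard error and with filled points where the adjusted p was below 0.05. All 4 points of lipl-5 lie below 0, while lipl-3 lies above 0 in fed larvae of both mutants and below 0 in starved raga-1 larvae only, and the fed points of lipl-4 are fitted values against 0 counts in N2.

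To compare levels between genes, CPM were divided by the length of the merged exons, which ran from 1.209 kb for lipl-8 to 1.929 kb for lipl-6. The summed family level was 66.1 ± 1.24 CPM per kb in fed and 73.3 ± 0.778 in starved raga-1 larvae, 66.9 ± 2.35 in fed and 220.4 ± 2.24 in starved rsks-1 larvae, and 104.5 ± 4.19 in fed and 262.7 ± 1.28 in starved N2 larvae (SD, n = 3). Fed and starved sums were therefore close in raga-1 and far apart in rsks-1 and N2, with no overlap between fed and starved libraries of any genotype. The make-up of the sum also differed. The share of lipl-5 in this level was 30.7% in fed and 16.2% in starved raga-1 larvae, 45.1% and 19.5% in fed and starved rsks-1 larvae, and 74.5% and 45.5% in fed and starved N2 larvae. The gene with the highest level per length was lipl-1 in both raga-1 groups, at 40.4% of the sum fed and 30.9% starved, and lipl-3 in starved rsks-1 larvae, at 28.6%. In the other groups, fed rsks-1 and both N2 groups, lipl-5 was highest. The shares of lipl-4, lipl-6 and lipl-8 ran from 0 to 1.78% each.

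**Figure D4:**
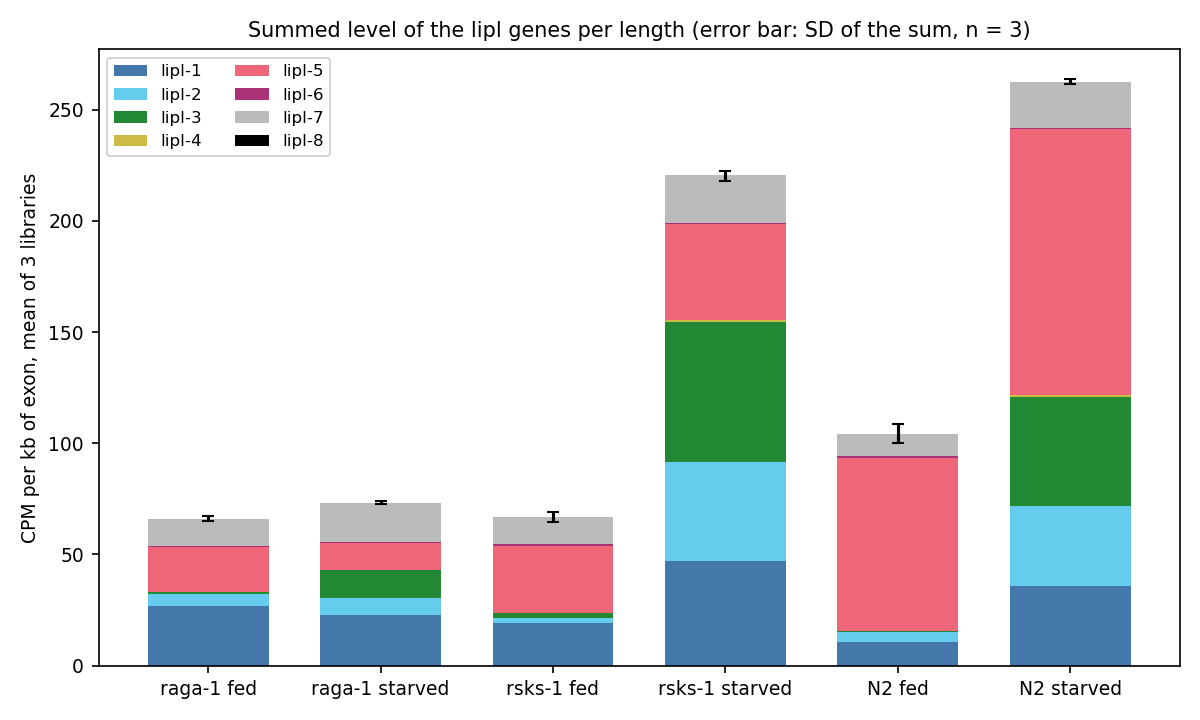
Summed level of the 8 lipl genes in CPM per kb of exon, stacked by gene as the mean of 3 libraries in each group, with the SD of the sum. Starved rsks-1 and starved N2 larvae reach 220.4 and 262.7, and the other 4 groups lie between 66.1 and 104.5, with lipl-5 the widest band in N2.

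The level of lipl-3 followed those of lipl-7, lipl-4, lipl-2 and lipl-1 across the 18 libraries, with Pearson's r of log2(CPM + 0.5) of 0.96, 0.93, 0.88 and 0.84. Many other genes were closer. Among the 14072 other tested genes ranked by r to lipl-3, lipl-7 had rank 112 and lipl-4 rank 443. Ranked by r to lipl-2 and to lipl-1, lipl-3 had ranks 623 and 497. The libraries fall into 6 groups and share their depth and scaling between genes, so these values only describe the pattern. In contrast r of lipl-5 with the 6 other tested genes ran from 0.02 to 0.41, and r of lipl-6 with lipl-1, lipl-2, lipl-3, lipl-4 and lipl-7 from -0.75 to -0.60. The 3 tested genes most like lipl-3 were ugt-31 (a UDP-glucuronosyltransferase, r = 0.993), cyp-37B1 (a cytochrome P450, r = 0.992) and F53F10.1 (r = 0.990). The level of ugt-31 was 7.96 and 27.3 CPM in fed and starved raga-1 larvae, 8.48 and 76.3 CPM in rsks-1 larvae, and 3.62 and 71.3 CPM in N2 larvae. The closest to lipl-2 were gstk-2 (a glutathione S-transferase, r = 0.983), lias-1 (a lipoic acid synthase, r = 0.983) and F53A9.8 (r = 0.980). The closest to lipl-1 were B0410.3 (r = 0.968) and the neuropeptide genes nlp-55 (r = 0.963) and flp-9 (r = 0.958). The closest to lipl-4 were F47B8.4, the arrestin-domain gene arrd-11 and ZK632.10, with r from 0.979 to 0.981. For lipl-5 they were ampd-1 (an AMP deaminase, r = 0.965), F32A11.1 (r = 0.962) and F10G7.5 (r = 0.958), and for lipl-7 R04B5.5 (r = 0.976), the C-type lectin gene clec-83 and F53F10.1 (r = 0.973 each). The likest to lipl-6 were mex-3 (an RNA-binding protein gene, r = 0.890), the cuticlin-like cutl-10 (r = 0.885) and W05H9.2 (r = 0.872). The genes most like lipl-5 spanned narrower ranges of group means than lipl-5 itself, from 289.1 CPM in starved raga-1 to 352.6 CPM in starved N2 larvae for ampd-1 and from 43.7 to 99.7 CPM in the same groups for F10G7.5.

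Among 10 transcription factor genes tied to lysosomal lipases or to fasting, 7 fell and 1 rose on feeding in raga-1, 9 fell and 1 rose in rsks-1 and 9 fell and 0 rose in N2, with median log2 changes of -0.37, -0.67 and -0.71. Over all genes tested 32.9% fell and 29.4% rose in raga-1, 35.2% and 35.7% in rsks-1, and 37.4% and 36.5% in N2. The activator hlh-30 had 373.0 ± 10.3 CPM in fed and 403.0 ± 6.37 CPM in starved raga-1 larvae, 224.0 ± 6.29 and 402.8 ± 13.9 CPM in fed and starved rsks-1 larvae, and 244.0 ± 4.67 and 449.8 ± 11.4 CPM in fed and starved N2 larvae (SD, n = 3). Its log2 change on feeding was -0.11 in raga-1 (SE 0.03, edgeR adjusted p = 0.00113), -0.85 in rsks-1 and -0.88 in N2, and its response in raga-1 exceeded the N2 one by 0.77 (SE 0.05, edgeR adjusted p = 3.56e-32). With only the raga-1 libraries in the fit the raga-1 change was -0.07 (edgeR adjusted p = 0.0577). In rsks-1 and N2 hlh-30 was lower in fed than in starved larvae, and in raga-1 its levels in the states were closer. Among the lipl genes called in raga-1, lipl-1 and lipl-5 changed by 0.23 and 0.78 on feeding. The others, lipl-2, lipl-3 and lipl-7, changed by -0.54, -3.98 and -0.53. The part of hlh-30 RNA in these values was not tested.

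The repressor gene mxl-3 was highest in starved raga-1 larvae. It stood at 84.9 ± 1.85 CPM in fed and 342.5 ± 4.29 CPM in starved raga-1 larvae, 17 ± 0.286 and 137.0 ± 3.68 CPM in fed and starved rsks-1 larvae, and 18.3 ± 2.03 and 103.6 ± 3.82 CPM in fed and starved N2 larvae (SD, n = 3). Feeding lowered it by log2 changes of -2.01 in raga-1, -3.0 in rsks-1 and -2.50 in N2 (SE 0.04 to 0.06). Against N2 it was higher in raga-1 by 1.73 starved (SE 0.04, edgeR adjusted p = 1.4e-72) and by 2.21 fed (SE 0.06, edgeR adjusted p = 2.41e-64). The related factor gene mdl-1 was also higher in raga-1, by 1.39 starved and 1.62 fed (SE 0.03 and 0.04). The forkhead gene daf-16 changed on feeding by 0.15 in raga-1, -0.39 in rsks-1 and -0.55 in N2, the raga-1 value being lost with library totals alone (0.05, edgeR adjusted p = 0.195). The part of these RNA levels in the lipl levels was not tested.

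**Figure D5:**
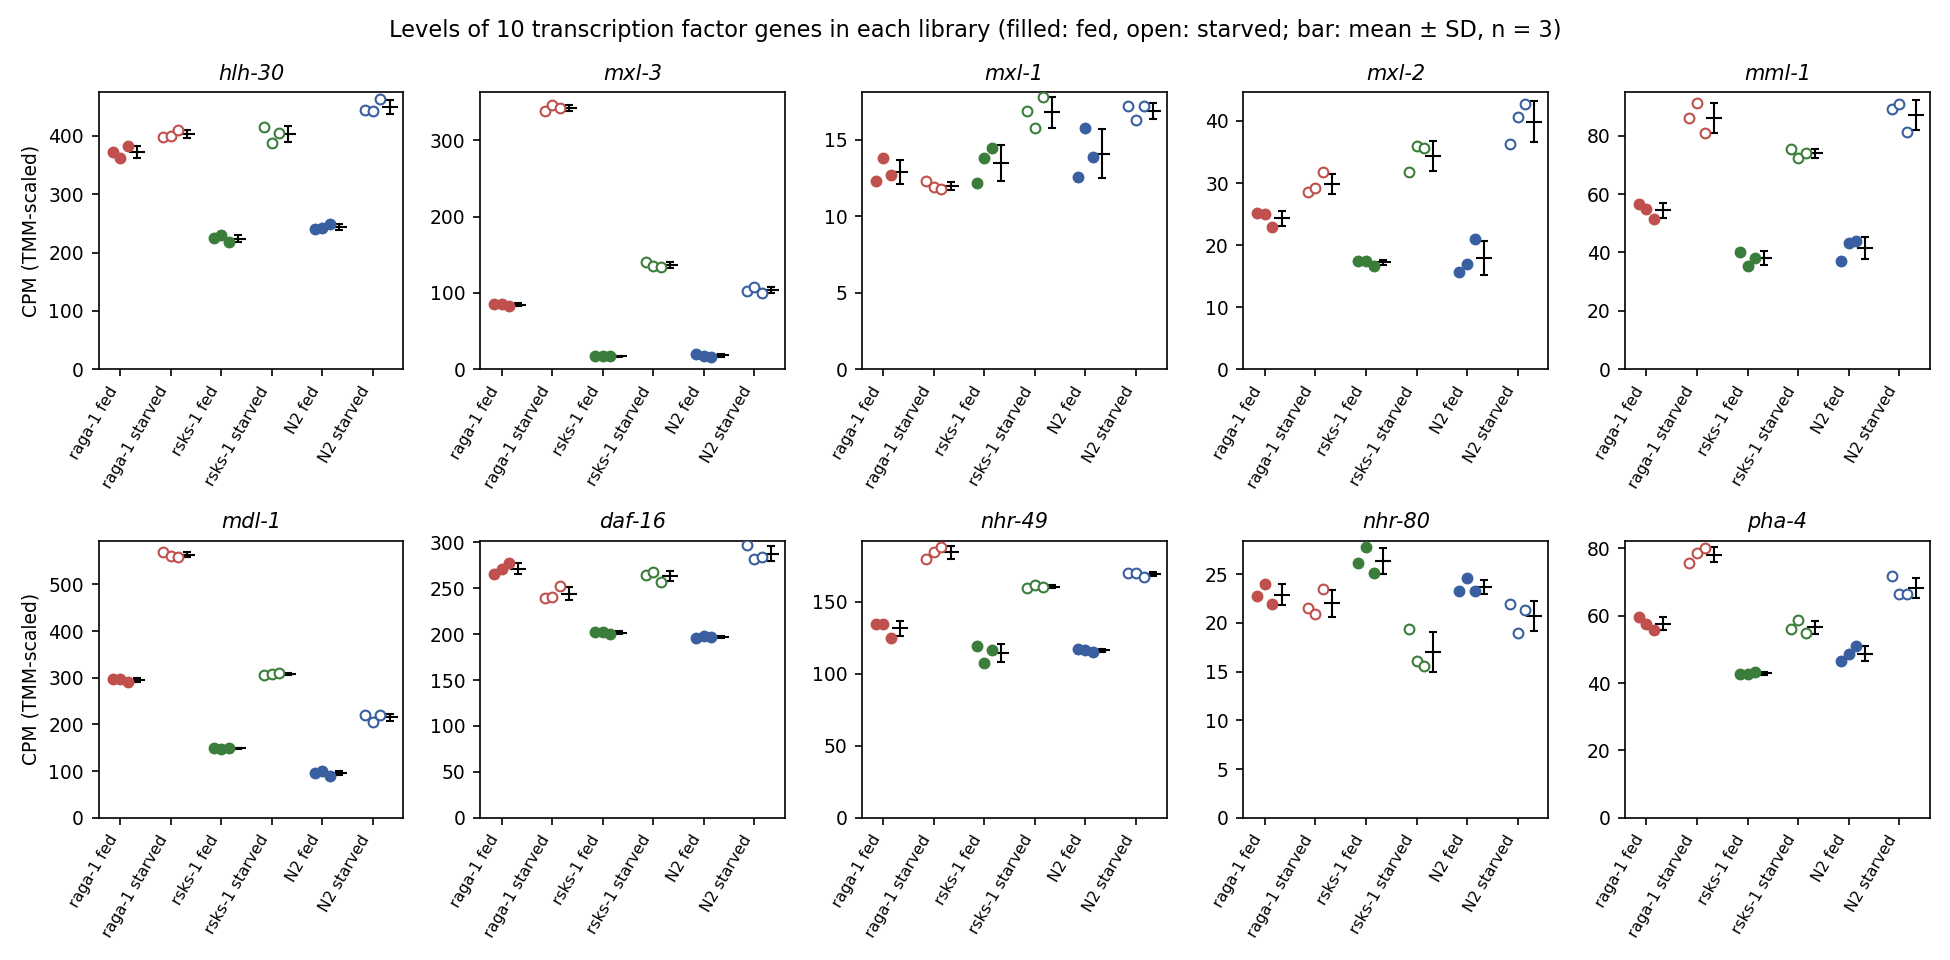
TMM-scaled CPM of 10 transcription factor genes in each library, with fed libraries filled, starved libraries open and the mean ± SD of 3 libraries beside them. The panel of mxl-3 shows starved raga-1 larvae highest at 342.5 CPM on average, and that of hlh-30 shows fed raga-1 larvae at 373.0 CPM, near the starved groups.

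The cytosolic route of fat breakdown works at the surface of lipid droplets. Of 9 genes of this route 8 fell and 0 rose in raga-1, 8 fell and 1 rose in rsks-1, and 8 fell and 1 rose in N2, with medians of -0.67, -0.92 and -0.89, where 32.9%, 35.2% and 37.4% of all genes fell and 29.4%, 35.7% and 36.5% rose. The triglyceride lipase gene atgl-1 changed by -0.98 in raga-1, -0.99 in rsks-1 and -1.32 in N2 (SE 0.05 to 0.06). The raga-1 response of atgl-1 lay above that of N2 by 0.34 (SE 0.08, edgeR adjusted p = 0.000187). The same difference was 0.51 for lipl-7, 1.39 for lipl-5, 1.96 for lipl-1, 2.45 for lipl-2 and 4.26 for lipl-3. For lipl-6 it was -0.85 and not called. Differences between atgl-1 and these genes were not tested. The fasting-induced lipase gene fil-1 changed by -0.67 in raga-1, -1.39 in rsks-1 and -2.29 in N2. Its relative fil-2 had 41 counts in fed raga-1 larvae against 1 in fed N2 larvae, a ratio of 24.6 with a 95% counting interval from 4.17 to 993.8. The droplet coat gene plin-1 fell most in raga-1, by a log2 change of -1.55, against -0.19 in rsks-1 and -0.31 in N2.

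The gene for the carrier partner of LIPL-4, lbp-8, rose on feeding in rsks-1 and N2, where lipl-4 was lower in fed libraries. It had 1.12, 0.538 and 1.80 CPM in fed and 1.06, 0.59 and 0.948 CPM in starved raga-1 larvae, 0.824, 0.81 and 1.22 CPM in fed and 0, 0.0616 and 0 CPM in starved rsks-1 larvae, and 1.57, 1.60 and 0.707 CPM in fed and 0.0916, 0.309 and 0 CPM in starved N2 larvae. In counts, fed over starved larvae gave a ratio of 40.8 in rsks-1 (95% counting interval 6.86 to 1653.9, edgeR adjusted p = 6.15e-07) and of 9.80 in N2 (3.82 to 32.1, edgeR adjusted p = 1.19e-05), and the raga-1 libraries overlapped. Among the 9 fatty acid binding protein genes lbp-1 to lbp-9, 3 fell and 3 rose on feeding in raga-1, 3 fell and 6 rose in rsks-1, and 2 fell and 6 rose in N2. The shares of all genes that fell were 32.9%, 35.2% and 37.4%, and of those that rose 29.4%, 35.7% and 36.5%, so that 3 of 9 is near the background. The most lowered was lbp-1, by log2 changes of -1.85, -4.20 and -4.26 in these genotypes.

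Other lysosomal genes both fell and rose. Of 28 genes for other lysosomal hydrolases 18 fell and 7 rose on feeding in raga-1, 16 fell and 7 rose in rsks-1 and 17 fell and 9 rose in N2, with medians of -0.27, -0.45 and -0.36. Of 15 genes for lysosomal membrane proteins 6 fell and 4 rose in raga-1, 8 fell and 5 rose in rsks-1 and 7 fell and 6 rose in N2. Beside these counts stand the 32.9%, 35.2% and 37.4% of all genes that fell in these genotypes and the 29.4%, 35.7% and 36.5% that rose, and the same shares apply to the lips genes described next. In N2 the most lowered hydrolase gene was cpz-1, a cathepsin Z, at -3.44, and the most raised was gba-2, a glucocerebrosidase, at 2.33. The lips genes, which encode secreted-type lipases of another family, number 14, of which 8 were tested. Of these, 4 fell and 1 rose in raga-1, 4 fell and 2 rose in rsks-1, and 4 fell and 3 rose in N2, and with only the N2 libraries in the fit 4 passed in N2 in place of 7.

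Markers of the intestine, where several lipl genes are known to act, were set beside these values. Of 8 markers 2 fell and 4 rose on feeding in raga-1, 2 fell and 5 rose in rsks-1, and 3 fell and 4 rose in N2, where 32.9%, 35.2% and 37.4% of all genes fell and 29.4%, 35.7% and 36.5% rose. Their summed level ranged from 3863.2 to 3963.9 CPM in fed and 3287.5 to 3363.9 CPM in starved raga-1 larvae, from 4098.0 to 4150.1 and 3032.4 to 3052.5 CPM in fed and starved rsks-1 larvae, and from 4913.5 to 4972.9 and 2505.7 to 2545.0 CPM in fed and starved N2 larvae, with no marker at 0. The intestinal master regulator gene elt-2 changed by 0.05 in raga-1 (edgeR adjusted p = 0.622), 0.22 in rsks-1 (edgeR adjusted p = 0.0274) and 0.13 in N2 (edgeR adjusted p = 0.214). The elt-2 value in rsks-1 was lost with DESeq2 (0.18, adjusted p = 0.113) and with library totals alone (0.02, edgeR adjusted p = 0.87). The sum was thus higher in fed larvae of each genotype, while the esterase gene ges-1 fell by log2 changes of -1.05, -2.78 and -2.39 in raga-1, rsks-1 and N2. Pharynx markers also moved, with 5 of 6 lower in fed larvae of each genotype, as did neuron markers, with 8 of 8 lower in raga-1, 6 of 8 in rsks-1 and 8 of 8 in N2. The neuron count in raga-1 depended on the processing. The calls of unc-104 (-0.09) and unc-119 (-0.19) were lost with DESeq2 (adjusted p = 0.121 and 0.0861) and in several other settings. Of 8 body wall muscle markers 5 fell and 3 rose in raga-1, 6 fell and 2 rose in rsks-1 and 4 fell and 3 rose in N2. With library totals alone myo-3 went from 0.06 to -0.04 in raga-1 and from 0.15 to -0.15 in N2, and mup-2 from 0.08 to -0.02 in raga-1. With only the raga-1 libraries in the fit, the raga-1 calls of pat-10 (-0.07) and unc-89 (-0.11) were lost. Their summed level ranged from 12459.3 to 12984.9 CPM in fed and 14580.6 to 15411.5 CPM in starved raga-1 larvae, from 7751.0 to 8019.4 and 13101.7 to 13172.3 CPM in fed and starved rsks-1 larvae, and from 8913.6 to 9142.8 and 10307.1 to 10439.0 CPM in fed and starved N2 larvae. Of 8 epidermis markers 2 fell and 2 rose in raga-1, 1 fell and 6 rose in rsks-1 and 1 fell and 5 rose in N2. The calls of elt-3 in rsks-1 (0.24) and lin-26 in N2 (0.33) were lost with library totals alone (0.04 and 0.03). The part of these tissues in the lipl values was not tested.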

How the data were processed

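The deposited gene and isoform tables hold expected counts, not scaled to depth. Per the submitters' processing notes STAR (2-pass, per the labels' protocols), RSEM and DESeq2 were used, with versions, library kit and strandedness not given in the sources used here. RSEM divides reads shared by similar genes, which could affect close paralogues. Expected counts were rounded (0.962% were not whole), and 44017 of 46904 identifiers had a name. Coordinates come from the WBcel235 annotation of Ensembl release 115, while the labels name another build that could not be matched, and no coordinate entered a count. In R 4.3.3, the filterByExpr function of edgeR 4.0.16 selected genes with a minimum count of 10, TMM gave the scaling, and robust quasi-likelihood tests were made in a model with 1 mean per group over all 18 libraries, 12 residual degrees of freedom and a common biological coefficient of variation of 0.0416. P-values were adjusted by Benjamini-Hochberg over 14073 genes, threshold 0.05, in 10 comparisons. The standard error is the log2 change divided by the square root of F. This can understate the error where a change is large and counts are low, and does so for lipl-3 on feeding in N2. For a group with 0 counts the floor was 3 counts summed over its libraries, and ratios at up to 10 counts have exact 95% intervals. Replicate libraries differed by a mean chi-square of 2.12 to 5.99, where counting error alone gives 1. The edgeR fit was also run on simulated counts in which few genes changed, as many up as down. The scaling where most genes change, as on feeding here, was not tested that way. Other settings were library totals alone, relative log expression factors, fits restricted to the libraries compared, isoform sums in place of gene counts, omission of the low-count filter, omission of each library, a block for the replicate number, and the Wald test of DESeq2 1.42.0. The members, gene lists and tests were chosen with earlier results of these data known. All lipl genes are named, with the 3 genes of highest Pearson's r to each and, from each list, genes among the 2 highest or 2 lowest changes or set beside the lipl genes. Some tissue markers are named because their calls depended on the processing. Python 3.11.15, pandas 2.3.3, NumPy 2.4.6, SciPy 1.17.1 and matplotlib 3.10.9 were used. No sequence table was used here, so promoters were not analysed here.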

Additional observations from a re-analysis of the deposited data

Results flagged for a closer look

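The response to feeding differed between genotypes in 16 tests of single lipl genes, each by the interaction term of the edgeR quasi-likelihood fit at an adjusted p below 0.05. Such calls were common over all genes tested. For raga-1 minus N2 21.8% were higher and 28.8% lower, for rsks-1 minus N2 10.8% and 15.8%, and for raga-1 minus rsks-1 18.8% and 25.3%. Values are differences between log2 changes, fed over starved. For raga-1 minus N2 they were 1.96 for lipl-1, 2.45 for lipl-2, 4.26 for lipl-3, 5.98 for lipl-4, 1.39 for lipl-5 and 0.51 for lipl-7. For rsks-1 minus N2 they were 0.42 for lipl-1, -1.02 for lipl-2 and 3.17 for lipl-3. For raga-1 minus rsks-1 they were 1.54 for lipl-1, 3.47 for lipl-2, 1.09 for lipl-3, 4.29 for lipl-4, 1.28 for lipl-5, -1.47 for lipl-6 and 0.33 for lipl-7. The lipl-6 and lipl-7 calls in that last comparison were lost when certain single libraries were left out. Both lipl-4 values are fitted sizes that depend on the prior count, since fed N2 larvae had 0 counts and fed rsks-1 larvae 1 count, and they are neither bounds nor evidence of a difference, because the gene was tested only through the starved libraries where it is high. The lipl-1 and lipl-5 differences between raga-1 and N2 join changes of opposite sign, 0.23 and 0.78 in raga-1 against -1.72 and -0.62 in N2.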

How the results depend on the processing

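The 70 values of single lipl genes were recomputed in 1745 alternatives, of which 1719 kept direction and side of the threshold, 15 lost the call, 6 gained it and 5 took the other sign. Many alternatives could hardly differ, since the omitted library lay outside the groups compared or isoform sums nearly repeated the gene counts. The 1719 is therefore no measure of stability. The 5 came from leaving out 1 library and concern uncalled values: over single libraries left out, lipl-6 ran from -0.23 to 0.07 for feeding in raga-1, from -0.07 to 0.24 for raga-1 minus N2 starved and from -0.02 to 0.44 for rsks-1 minus N2 fed, and lipl-4 from -0.26 to 2.24 for the response of rsks-1 minus N2. With single libraries left out, counts of called lipl genes ran from 6 to 7 for feeding in N2, 5 to 7 for the raga-1 minus rsks-1 response, 5 to 6 for raga-1 minus N2 starved, 3 to 5 fed and 3 to 4 for rsks-1 minus N2 fed, and were the same in the other 5 comparisons. With library totals alone they were 4 for feeding in raga-1 in place of 5, 4 for the rsks-1 minus N2 response in place of 3, 5 for raga-1 minus N2 starved in place of 6, 5 fed in place of 4, and 5 for rsks-1 minus N2 fed in place of 4. The count of lips genes in N2 was 4 in place of 7 with only the N2 libraries, and the cause was not tested. With the replicate block, feeding gave 5, 7 and 6 called lipl genes in raga-1, rsks-1 and N2, as without it, and a lipl-3 change of -8.25 in N2. Same-numbered libraries correlated at -0.041 to 0.032 after removal of group means, so no shared effect of the replicate number was seen. Libraries made in parallel could also show none, so these values do not settle whether the libraries were paired. Depth limits lipl-4 and lipl-8, and lipl-3 in fed N2 larvae.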
